A study of Mus musculus with 2 samples.

Results

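Mir132 and Mir212 are a pair of microRNA genes on mouse chromosome 11, here described in hindbrain of mouse embryos. They were chosen by name: the rows of each count table whose Ensembl identifier belongs to Mir132 or Mir212 in the GENCODE mouse annotation, which gave 2 genes of 1973 gene rows. Short RNA was sequenced from hindbrain of B6NCrl embryos at embryonic day 13.5, healthy and with the sexes pooled. The 2 libraries, replicate 1 and replicate 2 by their biological replicate numbers, form 1 group, and no allele, agent or treatment is named for either. They carry 1 donor identifier and separate biosample identifiers, and no source used here names separate litters, so a p-value here measures only how these libraries differ, which may be technical. The design holds no treated or stimulated sample, so the link of these genes to neuronal activity is background and is not tested by these libraries.

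A microRNA is cut from a hairpin in a longer transcript, and 1 arm of the hairpin, of about the length of a short sequencing read, is loaded into an Argonaute protein. Bases 2 to 8 of that arm, the seed, pair with sites in target messenger RNAs, whose translation or stability then falls. The Mir132 and Mir212 hairpins are known to be made from 1 transcript that the transcription factor CREB switches on after neuronal activity or neurotrophin signalling. In neurons miR-132 is known to promote the growth of dendrites and spines.

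The 3p arms are shown first because they carry the feature that joins the genes, an identical seed, given in capitals (RefSeq sequences, 5′ to 3′).
mmu-miR-132-3p: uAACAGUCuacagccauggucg
mmu-miR-212-3p: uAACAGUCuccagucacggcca

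Of the 1738 mature arms in the RefSeq table, only these 2 had this seed. The arms were identical in 17 of 22 positions, including the first 9. Counted from 1 at the 5′ end, with the base of miR-132-3p first, they differed by A10C, C14U, U17C, U20C and G22A. The 5p arms, shown because the same counts include them, had seeds of their own, and neither seed occurred in another arm of the table.
mmu-miR-132-5p: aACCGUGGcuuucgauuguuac
mmu-miR-212-5p: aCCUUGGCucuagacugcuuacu

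The whole hairpins show how far the members differ outside the seed. Capitals mark the 5p and 3p arms.
Mir132: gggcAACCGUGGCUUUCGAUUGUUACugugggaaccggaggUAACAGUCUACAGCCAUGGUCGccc
Mir212: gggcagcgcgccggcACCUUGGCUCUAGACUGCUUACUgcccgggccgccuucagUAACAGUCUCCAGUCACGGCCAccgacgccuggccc

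The longest run of bases shared by these hairpins was 10. Neither shared a stretch of 20 bases, or even of 12, on the same strand with any of 1893 other hairpins that have a row. The tables set aside reads that map to several places (33.9% of reads in replicate 1 and 34.5% in replicate 2), which can empty the rows of near-identical hairpins. No such sharing between hairpins was found for Mir132 or Mir212. Copies elsewhere in the genome were not searched. Each row counts the reads of a hairpin, so its 5p and 3p arms cannot be told apart in these values.

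Mir212 (ENSMUSG00000065590.1) lies at chr11:75173388-75173478 and Mir132 (ENSMUSG00000065537.1) at chr11:75173682-75173747, both on the plus strand of GRCm38, the assembly that mm10 denotes. Both lie in intron 1 of the non-coding gene 1700016P03Rik (chr11:75172560-75177633), with 203 bases between them. Mir212, 91 bases long, begins 828 bases after the host's first base, and Mir132, 66 bases long, begins 1122 bases after it. The identifier of Mir132 has version 1 in the tables and version 2 in the GENCODE M21 annotation used for these positions. The hairpin sequences of RefSeq and GENCODE M21 were the same. G and C made up 57.6% of the Mir132 hairpin and 69.2% of the Mir212 hairpin, against a median of 50.2% over the 356 detected hairpins, of which 76 had more than Mir132 and 9 more than Mir212.

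**Figure D1:**
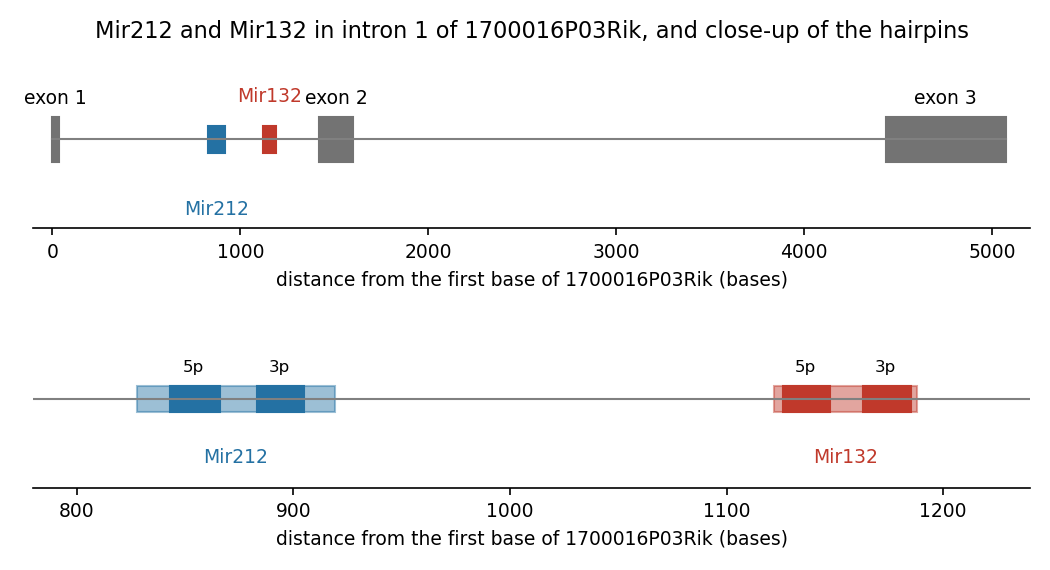
Map of the host gene 1700016P03Rik (above) and close-up of its intron 1 (below), with the distance from the first base of the host in bases on each x axis. Grey boxes are exons, coloured boxes the hairpins, and the darker parts in the close-up the mature arms; Mir212 starts at 828 bases and Mir132 at 1122.

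The gene rows held 3006571 counts in replicate 1 and 4508244 in replicate 2, and levels are given as counts per 1000000 of these (CPM). The 356 genes that reached 10 counts in each library are called detected. Mir10a and Mir10b, which mark hindbrain through their place in the Hox clusters, summed to 109408 and 132876 CPM in replicates 1 and 2. Of 6 rows taken as neuronal markers, 3 were detected (Mir137, Mir128-1 and Mir128-2), and all 6 summed to 7394 and 7434 CPM in replicates 1 and 2. Most of this was Mir137, at 6132 and 6281 CPM. The 3 rows of Mir124a, whose hairpins share stretches with each other, had 2 to 23 counts. Of the muscle markers, Mir1a-1, Mir133a-1 and Mir133a-2 had 0 counts in both libraries and Mir206 had 98 and 289 counts in replicates 1 and 2. The Mir133a hairpins share a stretch of 20 bases with another hairpin, so their rows could have lost reads. Mir1a-2, the other Mir1a gene listed, had no row, so Mir1a-1 was not compared with it. The 0 counts of Mir1a-1 are therefore uncertain too. The endothelial marker Mir126a had 20540 and 18917 CPM in replicates 1 and 2. Of the mural cell markers, Mir143 had 6689 and 6291 CPM and Mir145a 82.5 and 78.7 CPM, in replicates 1 and 2. Of the blood markers, Mir451a had 152 and 57.5 CPM, Mir223 141 and 152 CPM and Mir144 20.3 and 20.9 CPM, in replicates 1 and 2.

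Among the detected gene rows Mir132 was moderately abundant and Mir212 scarce. Mir132 had 1497 counts in replicate 1 and 2681 in replicate 2, which is 498 CPM (exact Poisson 95% interval 473 to 524) and 595 CPM (572 to 618). Replicate 2 was the higher, and the counting intervals did not overlap. The mean was 546 ± 68.4 CPM (SD, n = 2).

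Mir212 had 118 counts in replicate 1 and 184 in replicate 2, which is 39.2 CPM (32.5 to 47.0) and 40.8 CPM (35.1 to 47.2). Its libraries lay close together, with intervals that overlapped nearly whole, and the mean was 40.03 ± 1.11 CPM (SD, n = 2). Both values are far above the level that a count of 0 allows, 0.998 CPM in replicate 1 and 0.665 CPM in replicate 2. Summed, the members took 586 ± 69.5 CPM, or 0.0586% of the counts. In a bulk tissue, more cells with a microRNA and more of it per cell cannot be told apart. The intervals cover counting error only, since reads rather than molecules were counted, as far as the sources state.

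**Figure D2:**
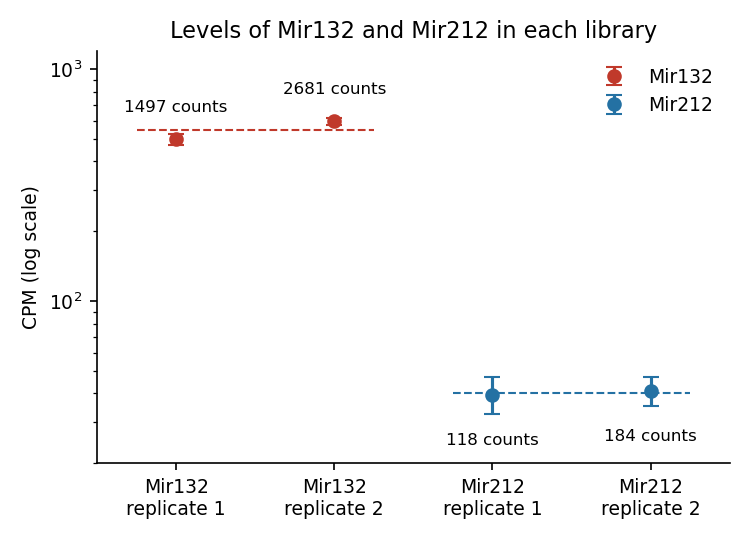
Level of Mir132 and Mir212 in each library, in CPM on a log axis. Points are libraries, bars exact Poisson 95% intervals and dashed lines the means of 2 libraries; Mir132 sits at 498 and 595 CPM and Mir212 at 39.2 and 40.8 CPM.

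Mir132 ranked 114 of the 356 detected genes by mean CPM, 121 in replicate 1 and 111 in replicate 2, above 68.0% of them. Mir212 ranked 253, with ranks 254 and 253 in replicates 1 and 2, above 28.9% of them. The median detected gene had 166 CPM, so the members stood on either side of it. Reads that map to several places are in none of these values. Rows of near-identical hairpins may therefore stand too low against the members, or be missing from the detected genes. Next to Mir132 in the order were Mir1193, at 571 ± 74.3 CPM, and Mir325, at 530 ± 15.5 CPM (n = 2 each). Both overlapped Mir132 in range, and the ranges of 15 genes in all, at ranks 110 to 125, overlapped that of Mir132. Next to Mir212 stood Mir7j, at 43.5 ± 1.01 CPM and clear of its range, and Mir122, at 39.9 ± 4.17 CPM, which overlapped it. In all, 10 genes at ranks 231 to 261 overlapped the range of Mir212.

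Nearest to Mir132 in level over both libraries was Mir9-3, a copy of the neural mir-9 family, at a Euclidean distance of 0.0993 in log2 CPM. Mir9-3 had 527 CPM in replicate 1 and 619 in replicate 2. Its hairpin shares stretches of 20 bases with another, so this value is uncertain. Mir20b, of the mir-17 family, followed at a distance of 0.113 and Mir27b at 0.138. Nearest to Mir212 were Mir122, known from liver, at 0.112, Mir146 at 0.117 and Mir1198 at 0.152. With 2 libraries these distances describe levels and say nothing of shared control.

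Within each library Mir132 had more than 10 times the counts of Mir212. The ratio was 12.7 in replicate 1 (exact binomial 95% interval 10.5 to 15.4) and 14.6 in replicate 2 (12.5 to 17.0). Mir132 was 92.7% of the reads of both genes in replicate 1 (Clopper-Pearson 95% interval 91.3 to 93.9) and 93.6% in replicate 2 (92.6 to 94.4). Equal shares had a two-sided exact binomial p of 1.46e-304 in replicate 1 and a smaller one in replicate 2. These p-values and intervals cover counting error only. How evenly the sequences of the members enter a library was not measured. The mean log2 ratio of levels, Mir132 over Mir212, was 3.77 ± 0.14 (SD, n = 2), or 13.6-fold. Reads of a microRNA are whole mature arms, so levels were not divided by length. Per base of the hairpin the log2 ratio of levels was 4.23.

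The ratio itself was not found to differ between libraries beyond counting error. Its log2 in replicate 1 minus that in replicate 2 was -0.20, with a counting interval of -0.55 to 0.15 and a two-sided Fisher's exact p of 0.264 on the 4 counts. This comparison needs no scaling of the libraries, and the width of its interval is set by the 118 and 184 counts of Mir212. It cannot tell no change from a change within that interval.

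Other hairpins that sit close together were often as unequal. Among detected neighbours on 1 strand with at most 1000 bases between them there were 58 other pairs, and the median absolute log2 ratio of their levels was 2.97, or 7.83-fold, against 3.77 for Mir132 and Mir212. The range over the other pairs was 0.04 to 10.42, and 22 of the 58, or 37.9%, were at least as unequal as Mir132 and Mir212. The downstream hairpin, here Mir132, was the higher in 25 of the 58. The absolute change of the log2 ratio of levels between libraries, 0.20 for Mir132 and Mir212, had a median of 0.18 over the other pairs. A further 41 neighbouring pairs had 1 hairpin below the detection limit and are not in these values. Hairpins that share stretches with others were not left out, so the levels in some pairs may be uncertain. A hairpin of a cluster can also be in more than 1 pair.

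**Figure D3:**
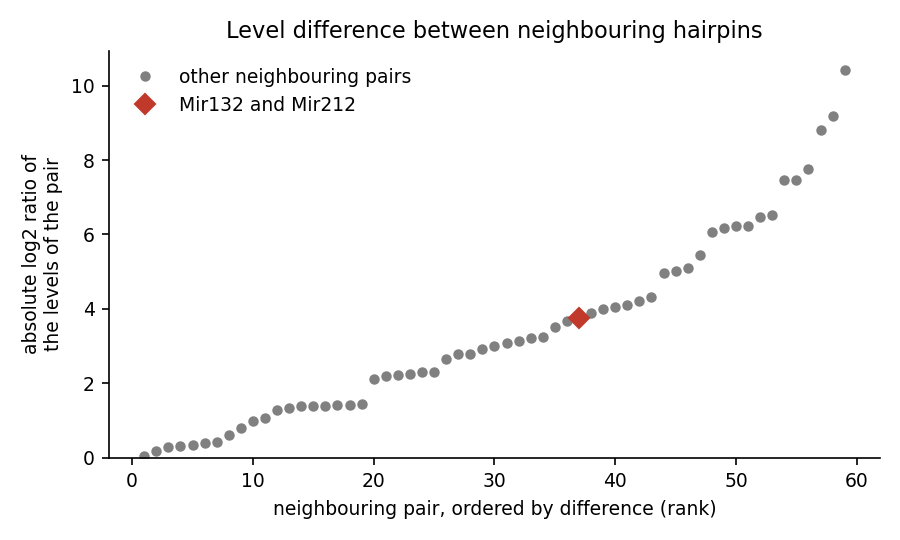
Absolute log2 ratio of the levels of neighbouring detected hairpins, ordered by size, with the rank of the pair on the x axis. Each point is the mean over 2 libraries of 1 pair at most 1000 bases apart; Mir132 and Mir212, at 3.77, lie among 58 other pairs with a median of 2.97.

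The closest microRNA rows outside the pair were distant and differed in level. After Mir132 by 290 kb lies Mir22 (chr11:75463716-75463810), a widely expressed microRNA, with 3349 and 2764 CPM in replicates 1 and 2. Before Mir212 by 305 kb lies Mir6926 (chr11:74868127-74868194, minus strand), with 2 counts in replicate 1 and 1 in replicate 2, at the floor. Unlike Mir132, Mir22 was the higher in replicate 1, at a log2 ratio of 0.31, replicate 1 over replicate 2.

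No read of either member was counted in the column taken as the opposite strand. The tables name no columns, and column 3 was taken as the strand of the gene because it held 98.1% of the gene-row counts. For Mir132, 0 opposite reads beside 1497 and 2681 allow up to 0.200% in replicate 1 and 0.112% in replicate 2. For Mir212, 0 beside 118 and 184 allow up to 2.54% and 1.63% in replicates 1 and 2. Opposite-strand counts were present in 56 of the 1973 rows.

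Between the libraries, Mir132 was lower in replicate 1 when judged against counting error alone, and Mir212 was not called. With trimmed-mean (TMM) scaling the log2 ratio, replicate 1 over replicate 2, was -0.22 for Mir132 (counting interval -0.31 to -0.13), and the exact binomial test (two-sided, p-values adjusted by Benjamini-Hochberg over all 356 genes) gave an adjusted p of 6.81e-06. For Mir212 it was -0.02 (-0.37 to 0.32), with an adjusted p of 0.956. This test, which sets 1 library against 1 library, called 45.2% of all detected genes, so the call of 1 of 2 members is no result about them. Once a biological coefficient of variation of 0.1 was allowed for in edgeR's exact test, the adjusted p of Mir132 was 0.958. The coefficient measured over the detected genes was 0.141. It took these same libraries as 1 group, so it counts the difference between them as spread. An absolute log2 ratio larger than that of Mir132 was seen in 130 genes, or 36.5%, and one larger than that of Mir212 in 333. In the same direction as Mir132, the hindbrain markers Mir10a and Mir10b stood at log2 ratios of -0.26 and -0.20. The choroid plexus markers Mir204 and Mir449a stood at -0.79 and -1.03, and together had 4131 and 8239 CPM in replicates 1 and 2. The muscle marker Mir206 stood at -0.94. The neuronal marker Mir137 stood at 0.00, and in the other direction were Mir128-1 at 0.13, Mir128-2 at 0.22, the endothelial Mir126a at 0.15 and the mural cell markers Mir143 at 0.12 and Mir145a at 0.10. Of the blood markers, Mir451a stood at 1.44, Mir223 at -0.07 and Mir144 at -0.01. The part of any of these cell types in the value of Mir132 was not tested.

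**Figure D4:**
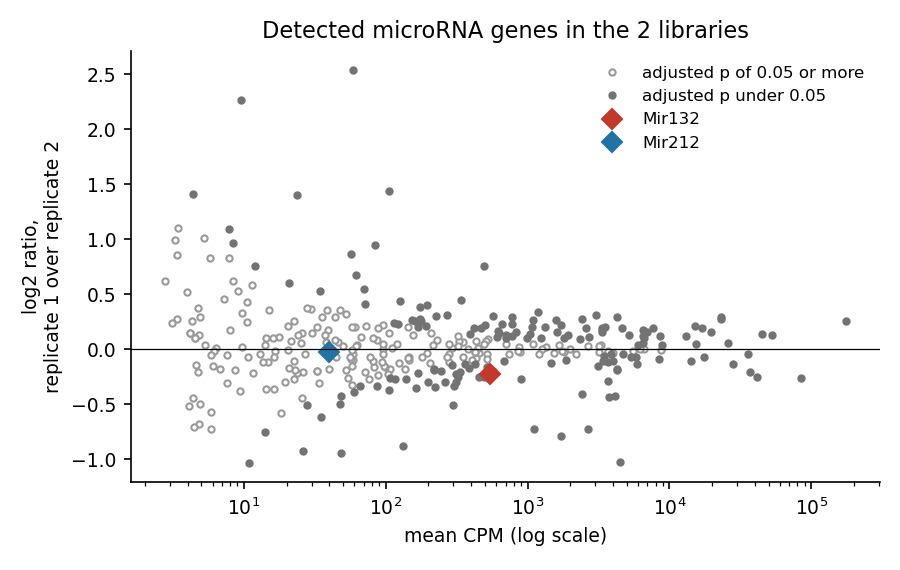
Log2 ratio, replicate 1 over replicate 2, against mean CPM on a log axis for the 356 detected genes. Filled points have an adjusted p under 0.05 by the exact binomial test; Mir132 at -0.22 and Mir212 at -0.02 lie within the cloud of other genes.

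Among microRNAs linked to neuronal activity in the literature, Mir132 stood in the lower part and Mir212 was the lowest of those detected. Of 23 genes listed, Mir132 and Mir212 included, 22 had a row and 18 were detected. Mir132 had 11 detected list genes above it and Mir212 had 17. The 16 detected genes other than the members had a median of 1218 CPM, against 166 CPM over all detected genes. The list was chosen with earlier results of these data known, and its 4 undetected rows are not in that median. The contrast is therefore no result about activity-linked microRNAs. Mir137, a regulator of neuronal differentiation, was the highest at 6207 ± 105 CPM (SD, n = 2), and Mir182 of the sensory cluster followed at 5535 ± 143 CPM. Mir124a-3 and Mir9-2 were the lowest rows, at 1.22 ± 1.10 and 3.16 ± 0.236 CPM. Both are copies of multicopy families, and 9 of the 22 rows share a stretch of 20 bases with another hairpin, the 4 undetected rows among them. The levels of those rows, and so their order against Mir132 and Mir212, are uncertain. By the exact binomial test 2 of the 18 were higher and 5 lower in replicate 1, beside 45.2% of all detected genes called in either direction.

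**Figure D5:**
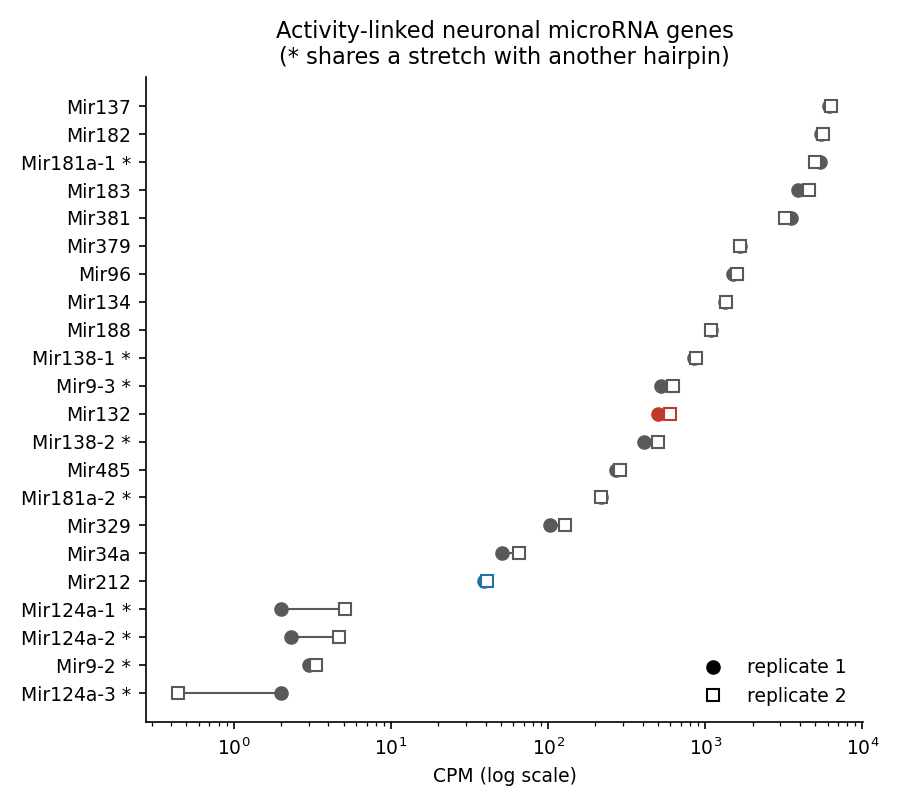
Levels of the 22 listed activity-linked microRNA genes with a row, in CPM on a log axis, with filled circles for replicate 1 and open squares for replicate 2. Mir132 (red) and Mir212 (blue) lie below Mir137 at 6207 CPM and above the 4 undetected rows, and asterisks mark hairpins that share a stretch of 20 bases with another.

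Beside other microRNAs of neurons, most of them with rows of uncertain level, Mir132 had 3 above it and Mir212 had 11. All 12 rows of a list of the mir-128, mir-129, mir-153, mir-218, mir-7 and mir-135 genes were detected, with a median of 275 CPM. Of these, 8 lay between the members and 1 below Mir212. Mir153, known to act at the synapse, was the highest at 1579 ± 180 CPM and Mir128-1 next at 699 ± 33.9 CPM. Mir218-1, one of the copies of the motor neuron mir-218, was the lowest at 27.0 ± 1.03 CPM, and Mir129-1 had 75.6 ± 11.4 CPM (SD, n = 2 each). Of the 12 rows 10, with Mir128-1, Mir129-1 and Mir218-1 among them, share a stretch of 20 bases with another hairpin, so their order against Mir132 and Mir212 is uncertain. The rows that share none, Mir153 and Mir7b at 683 ± 47.9 CPM, both lay above Mir132. By the exact binomial test 4 of the 12 were higher and 3 lower in replicate 1, beside 45.2% of all detected genes called in either direction.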

How the data were processed

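Short RNA of mouse embryonic hindbrain was sequenced in 2 libraries. The authors deposited raw read counts per microRNA gene, aligned to mm10 with GENCODE M4, per the deposited README. Aligner and counter: not given in the sources used here. Column 3 of the counts, which held 98.1% of gene-row counts in each library, was used, and the 4 summary rows were kept out of library sizes. Gene rows held 49.0% of 6141045 reads in replicate 1 and 47.5% of 9486700 in replicate 2. Names and positions came from GENCODE M21, which matched 1894 of 1973 identifiers, and mature sequences from RefSeq on GRCm38.p6, which matched both members. The common biological coefficient of variation and TMM factors over all gene rows came from edgeR 4.0.16. With 1 group, edgeR's quasi-likelihood test could not be run. Exact tests used scipy 1.17.1, with 0.05 as the threshold of the adjusted p. Only the exact binomial test between libraries was tested on simulated data, which held counting error and no further spread between libraries. The members and lists were chosen with earlier results of these data known. Named besides them are the 3 genes nearest in level to each, their neighbours in rank and on the chromosome, and the ends of each list. Alternatives changed the scaling (DESeq2 1.42.0 size factors, totals), filter, strand column, denominator, test, stretch length and replicate.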

Additional observations from a re-analysis of the deposited data

How the results depend on the processing

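Per 1000000 of all reads of the library, in place of gene-row counts, Mir132 averaged 263 CPM and Mir212 19.3 CPM. With the most abundant gene left out of the denominator they averaged 662 and 48.5 CPM. Leaving out a replicate gave 498 to 595 CPM and ranks 111 to 121 for Mir132, 39.2 to 40.8 CPM and ranks 253 to 254 for Mir212, and a log2 ratio of levels of 3.67 to 3.86. The log2 ratio of Mir132, replicate 1 over replicate 2, was -0.22 under edgeR's exact test too, but lost its call, with an adjusted p of 0.958 at a preset coefficient of variation of 0.1 and 1.0 at the estimated one. It held its direction and call from -0.26 to -0.22 under library totals, DESeq2 size factors and the either-strand column. Genes called between the libraries numbered 13 and 5 under these edgeR tests. The exact binomial test called 161, and the other scalings, filters and strand column gave 153 to 170. The estimated coefficient took the same libraries as 1 group and so counts their difference as spread. Few calls were therefore to be had at that setting, and the 5 are no separate check. Under library totals the balance of called genes turned, with 77 higher and 92 lower in replicate 1, against 89 and 72 with TMM, and the median log2 ratio of detected genes was -0.02, against 0.01. The log2 ratios of Mir132 and of Mir212, replicate 1 over replicate 2, stayed below 0 under each scaling, strand column and test tried. The alternative gap of 10000 bases between neighbours, chosen after the data were seen, left 38.2% of other pairs at least as unequal. No paired analysis was possible because there is 1 group. The precision of the ratio is limited by the 118 and 184 counts of Mir212.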
